A study of Mus musculus with 24 samples.

Results

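The 37 genes described here encode the plasma proteins of the complement and clotting cascades, with their inhibitors and the enzymes of fibrinolysis. They were chosen by gene name out of the 50765 genes of each deposited table, with earlier results of these data known. All 37 were found in the tables of liver, of kidney and of livers collected around the day. Members were kept apart by role: initiation of complement (C1ra, C1s1, Mbl1, Mbl2, Masp1, Masp2), central components (C2, C3, C4b, Hc, Cfb), terminal components (C6, C8a, C8b, C8g, C9), complement regulators (Cfi, C4bp, Serping1, Vtn), coagulation factors (F2, F5, F7, F9, F10, F11, F12, F13b, Klkb1, Kng1), and anticoagulants with fibrinolysis (Proc, Pros1, Serpinc1, Serpind1, Plg, Serpinf2, Cpb2).

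Complement and coagulation are cascades of zymogens, proteases that circulate in an inactive form until the preceding protease cleaves them. Hepatocytes secrete most of these proteins into the blood, and several of the genes belong to the acute-phase response, in which the liver alters its secretion during inflammation. Hepatocyte transcription factors such as HNF1 and C/EBP proteins are known to bind promoters of this class of genes, and many liver genes follow the daily clock through E-boxes, D-boxes and response elements of ROR receptors.

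RNA was sequenced from Nudt12-/- mice (knockout or KO), in which a deletion takes 58 bp out of exon 6 on both copies of the gene, and from Nudt12+/+ mice (wild type or WT). NUDT12 is a nudix hydrolase that removes NAD caps from RNA, and the study asked how transcript levels and their daily course depend on it. The KO mice were of 1 line, made in B6D2F1/J hybrid embryos, a cross of C57BL/6J with DBA/2J, whose founders were then crossed with C57BL/6J mice. Knockout (n = 3) and wild-type (n = 3) livers and knockout (n = 3) and wild-type (n = 2) kidneys came from mice of 3 to 4 months, with no treatment and no time of collection in the labels. Wild-type kidney 3 was not analysed here. The time course held 6 knockout and 6 wild-type livers from mice of 4 to 6 months, kept for 10 days in 12 h of light and 12 h of dark and collected at ZT0, 4, 8, 12, 16 and 20, where ZT is zeitgeber time, counted in hours from the moment the lights go on. Each genotype had 1 library at each time. The labels do not say that the libraries of a group came from separate animals, so p-values measure the spread between these libraries.

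Normalized estimated counts, here called normalized counts, summed to between 16.9 and 27.8 M (mega) over the 23 libraries. Nudt12 stood at 211, 235 and 232 in KO livers, against 1301, 986 and 1187 in WT livers, and its log2 fold change was -2.34 (limma, adjusted p = 0.00944). Hepatocyte markers made up 2293781 to 2849960 normalized counts in KO livers and 2239135 to 2381154 in WT livers, and proximal tubule markers 723803 to 795913 in KO kidneys and 765586 to 852996 in WT kidneys, as the tissue labels say. In bulk tissue, fewer cells of a type and less RNA per cell cannot be told apart. Libraries stood apart in 3 ways that touch the results below. Acute-phase transcripts (a list of 24 genes) summed to 274514, 223431 and 233728 in KO livers, against 299543, 850193 and 525831 in WT livers. Alb, the gene of serum albumin and a hepatocyte marker, was highest in WT kidney 1 among the kidneys (225, 396 and 184 in KO kidneys, against 772 and 164 in WT kidneys). Clock transcripts stood apart between the genotypes in the livers and kidneys of unlabelled time: Arntl, a core activator of the clock, stood at 21.3, 55.3 and 34.2 in KO livers, against 237, 458 and 507 in WT livers (limma, log2 fold change -3.43, adjusted p = 0.0857).

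In liver all 37 transcripts were abundant, with at least 1000 normalized counts in each of the 6 libraries. Together they made up 2.28 to 2.78% of a KO liver library and 2.2 to 3.55% of a WT liver library. In kidney they made up 0.135 to 0.142% of a KO library and 0.128 to 0.142% of a WT library. Levels were ordered per kilobase of exon. In liver the order was led by C3, the component on which all complement pathways converge, at 28583 ± 6161 normalized counts per kb in KO livers and 37242 ± 18909.9 in WT livers (SD, n = 3 each). Vtn (vitronectin, which binds the terminal complex and blocks its insertion) followed at 20686 ± 1141 per kb in KO livers and 22469 ± 2367 in WT livers. Kng1, which encodes the kininogens of the contact system, Cfb, the protease of the alternative pathway convertase, and Plg (plasminogen) came next over the 6 libraries together, with 12898 ± 1444, 10640.3 ± 371 and 8466 ± 735 per kb in KO livers and 12536 ± 1790.3, 12841 ± 1832 and 8409.7 ± 2267 in WT livers. In WT livers the libraries of C3 overlapped with those of Vtn and the libraries of Kng1 with those of Cfb, while in KO livers these neighbours in the order did not overlap. Cfb and Plg did not overlap in either genotype. C9, the component that lines the pore of the terminal complex, was close to Plg, with 7415 ± 1395 per kb in KO livers and 8832 ± 837 in WT livers, where its mean was above that of Plg.

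Kidney kept a different order. Cfb led there with 4431 ± 356 normalized counts per kb in KO kidneys (n = 3) and 4345 ± 329 in WT kidneys (n = 2). It was followed by Serpinf2, the main inhibitor of plasmin, with 2996 ± 274 per kb in KO and 3264 ± 15.9 in WT kidneys. F13b, the carrier subunit of the fibrin cross-linking factor XIII, had 1386 ± 84.4 per kb in KO and 1241 ± 228 in WT kidneys, and Proc, the zymogen of the anticoagulant protein C, had 1174 ± 101 and 1282 ± 81.9. These neighbours overlapped in WT kidneys but not in KO kidneys. Serping1, the C1 inhibitor, which also blocks kallikrein, came next with 501 ± 49.3 per kb in KO and 579 ± 22.2 in WT kidneys. In all, 8 of the 37 genes had a mean of at least 1000 normalized counts in kidney, 7 had 100 to 1000, 21 had 1 to 100, and F11 had less than 1.

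Liver and kidney were normalized in separate tables, so the tissues were set against each other only as shares of a library, without a test. F13b was the gene whose share differed least between the tissues, with 203 to 219 ppm (normalized counts of the gene per M of the library) in KO livers, 143 to 175 in WT livers, 132 to 148 in KO kidneys and 98.4 to 140.1 in WT kidneys. The mean liver share of F13b was 1.41 times that of kidney, and it was the only member whose liver and kidney libraries overlapped. The ratio was under 10 for 7 more genes: Serpinf2 (2.36), Pros1 (2.38, protein S, the cofactor of activated protein C), Proc (2.50), Cfb (2.71), C2 (3.05, the protease of the classical and lectin convertase), F5 (5.99, the cofactor of factor Xa) and Serping1 (7.54). It was over 1000 for 12 genes, and was highest for C8b (5809.7), F11 (5319) and F12 (4331). The kidney means of these genes were only 2.23, 0.43 and 1.58 normalized counts, so the size and order of their ratios are imprecise. The subunits of 1 protein differed in this respect: C8a had a mean liver share 29.3 times and C8g 19.7 times that of kidney, against 5809.7 times for C8b. Cfb and C2 lie 0.09 kb apart on chromosome 17 and the genes differed little in this ratio, while F11 and Klkb1 lie 4.66 kb apart on chromosome 8 with ratios of 5319 and 82.4.

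**Figure D1:**
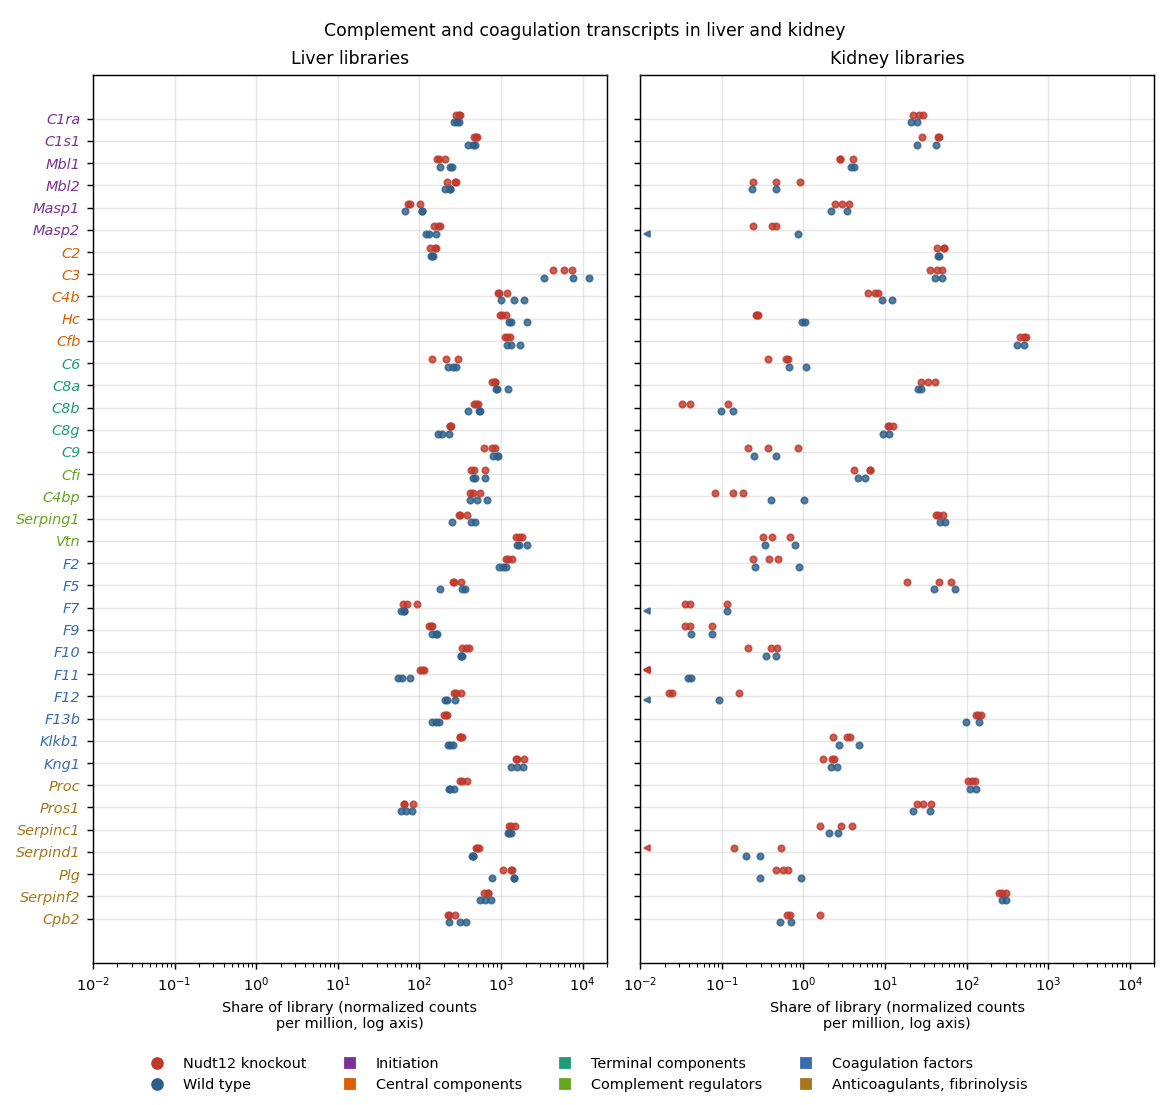
Share of each of the 37 transcripts in each library, in ppm on a log axis, for liver (left panel; 3 KO, 3 WT) and kidney (right panel; 3 KO, 2 WT); each point is 1 library and a triangle at the left edge marks a library listed at 0. Liver values of all 37 genes lie above their kidney values except for F13b, whose ranges overlap.

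Between knockout and wild-type livers none of the 37 transcripts had an adjusted p under 0.05 (limma on log2(normalized count + 1), 0 of 37, where 0.0157% of all 19088 genes tested passed). An unadjusted p under 0.05 was reached by 6 genes, 4 with higher and 2 with lower KO values, against 7.99% of all genes. Values were higher in KO livers for 19 genes and lower for 18, and the median log2 fold change was 0.0051, against 0.0029 over all genes. In the KO libraries 6 genes lay above every WT library (Serpind1, Proc, F13b, F2, F11 and Klkb1; 7.07% of all genes did so) and 2 lay below (Hc and C8a; 6.86% of all genes).

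The coagulation factors were the group with most KO values on the high side, 8 of 10, and the group's median log2 fold change was 0.21. F11 encodes factor XI, the zymogen that carries contact activation and thrombin feedback on to factor IX. F11 had 2511, 2849.8 and 2788 normalized counts in KO livers, against 1569.9, 1843 and 1488 in WT livers. The groups did not overlap, and the lowest KO library was well above the highest WT library. The means were 2716 ± 180.2 in KO livers and 1634 ± 186 in WT livers (SD, n = 3 each), a log2 fold change of 0.74 (SE 0.14, limma, adjusted p = 0.246, unadjusted p = 0.000848). In the authors' deposited table F11 had a log2 fold change of 0.646 with an adjusted p of 0.00421; it was the 1 member of 37 under 0.05 there, where 1.38% of the genes with an adjusted p were. Klkb1, the neighbour of F11, encodes plasma prekallikrein, a protease paralogous to factor XI that acts with factor XII and kininogen. Klkb1 had 7669.6, 8369 and 8087 normalized counts in KO livers, against 6565, 5706 and 6251 in WT livers. All 3 KO libraries were above the WT libraries, with means of 8042 ± 352 in KO livers and 6174 ± 434 in WT livers and a log2 fold change of 0.38 (SE 0.13, limma, adjusted p = 0.572).

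Because these neighbours lay on the same side in liver, the sequences around their start sites are shown (RefSeq, GRCm38.p6, 250 bases before to 50 after the start, 5′ to 3′ on the gene's strand; F11 at chr8:45261982-45262281, minus strand, and Klkb1 at chr8:45294786-45295085, minus strand). Capitals mark the 1 motif match in each window, a loose C/EBP motif (TTGCNNAA, N being any base, searched on both strands). In both genes it was found on the opposite strand, as TTNNGCAA. Its first base lies at -17 from the start in F11 and at -177 in Klkb1.
F11: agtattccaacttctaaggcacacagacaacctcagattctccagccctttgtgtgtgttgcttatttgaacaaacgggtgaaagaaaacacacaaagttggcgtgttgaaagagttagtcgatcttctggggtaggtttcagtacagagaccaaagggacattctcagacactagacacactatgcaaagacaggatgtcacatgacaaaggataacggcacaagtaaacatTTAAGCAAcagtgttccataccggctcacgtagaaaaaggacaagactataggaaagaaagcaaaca
Klkb1: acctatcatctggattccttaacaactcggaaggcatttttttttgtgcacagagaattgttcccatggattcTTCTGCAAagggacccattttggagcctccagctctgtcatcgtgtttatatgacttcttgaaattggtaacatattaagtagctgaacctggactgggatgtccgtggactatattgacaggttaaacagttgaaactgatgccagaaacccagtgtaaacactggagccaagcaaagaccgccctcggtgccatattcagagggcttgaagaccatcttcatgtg

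Other coagulation factors had smaller fold changes. F13b had 5358, 5341 and 5116 normalized counts in KO livers, against 4153, 3438 and 4806 in WT livers, a log2 fold change of 0.36 (SE 0.16, limma, adjusted p = 0.6245). The KO libraries of F13b lay close together above all 3 WT libraries. F2 (prothrombin), F7 (which starts clotting with tissue factor), F10 (the protease that cleaves prothrombin), F12 (which starts contact activation) and Kng1 had log2 fold changes of 0.21, 0.21, 0.15, 0.29 and 0.046. F5 and F9 (the zymogen activated by factor XI) had -0.026 and -0.20, and none of these 7 genes reached an unadjusted p under 0.05.

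**Figure D2:**
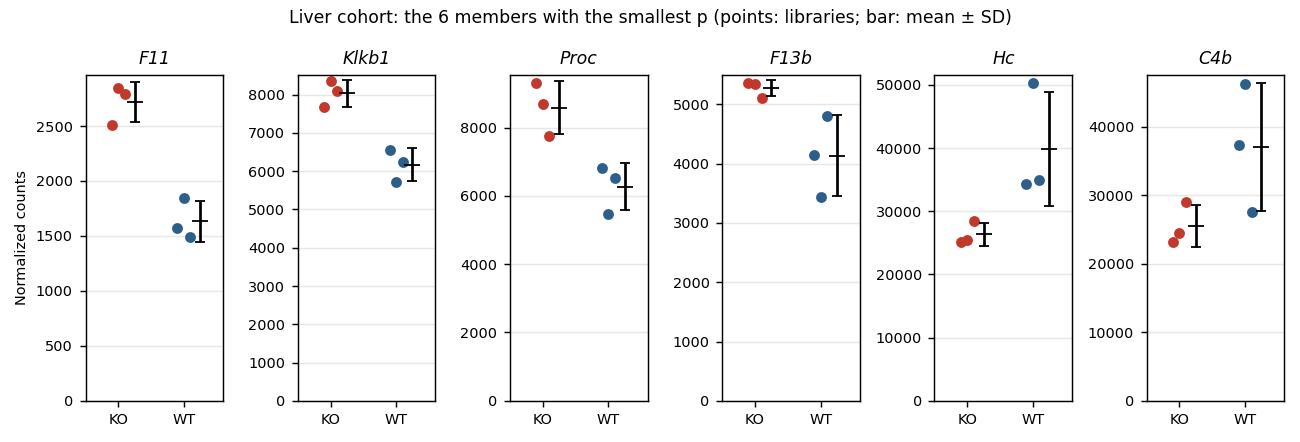
Normalized counts of the 6 genes with the smallest p in liver, in KO (red, n = 3) and WT (blue, n = 3) libraries, 1 point per library, with the mean and SD as a bar beside each group; axes start at 0. KO libraries lie above all WT libraries for F11, Klkb1, Proc and F13b, below them for Hc, and overlap with them for C4b.

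Anticoagulant and fibrinolytic genes had KO values on the high side for 5 of 7, and the median of their log2 fold changes was 0.046. Proc had 9297, 8690.0 and 7751 normalized counts in KO livers, against 6806, 5482 and 6518 in WT livers. Its KO libraries lay above the WT libraries, with means of 8579 ± 779 in KO and 6269 ± 696 in WT livers (SD, n = 3 each) and a log2 fold change of 0.45 (SE 0.15, limma, adjusted p = 0.564). Serpind1 (heparin cofactor II, an inhibitor of thrombin) had a log2 fold change of 0.14, and Serpinc1 (antithrombin), Plg, Serpinf2 and Pros1 lay between -0.015 and 0.059. Cpb2, the carboxypeptidase that protects fibrin from plasmin, had the lowest value of this group at -0.34 (limma, adjusted p = 0.681).

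Complement genes past initiation lay mostly on the low side in KO livers, where 49.7% of all genes were lower. This held for 4 of 5 central components (median log2 fold change -0.26), 4 of 5 terminal components (-0.27) and 4 of 4 regulators (-0.14). For regulators, only WT liver 2 lay above the highest KO liver. The median deviation of their genes was 0.073, -0.16 and -0.14 in KO livers, against -0.092, 0.31 and 0.0086 in WT livers. For central components it was -0.18, -0.31 and -0.11, against 0.097, 0.61 and 0.057, with WT liver 2 far highest. For terminal components the libraries of the genotypes overlapped. Hc encodes C5, which is split to start the membrane attack complex. Hc had 25081, 25463 and 28447 normalized counts in KO livers, against 34341, 50343 and 34891 in WT livers. The groups did not overlap, WT liver 2 was the highest, and the means were 26330.2 ± 1843 in KO and 39858 ± 9084 in WT livers (SD, n = 3 each). The log2 fold change of Hc was -0.58 (SE 0.20, limma, adjusted p = 0.572). DBA/2 mice are known to carry an allele of Hc that yields no C5 protein. The alleles of these animals were not analysed here.

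Hc is shown with its start site because it stood low in KO livers and KO kidneys and high in KO livers of the time course (RefSeq, GRCm38.p6, 250 bases before to 50 after the start; chr2:35061363-35061662, minus strand). Capitals mark an HNF1 half-site (GTTAAT, found on the opposite strand as ATTAAC, first base at -74) and a D-box (TTANNTAA, first base at -32).
Hc: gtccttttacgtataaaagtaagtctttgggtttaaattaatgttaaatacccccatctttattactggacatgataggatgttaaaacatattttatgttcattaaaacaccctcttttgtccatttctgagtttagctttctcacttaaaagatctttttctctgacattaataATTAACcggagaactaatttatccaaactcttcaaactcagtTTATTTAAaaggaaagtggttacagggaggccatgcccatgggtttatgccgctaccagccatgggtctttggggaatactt

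C4b, the thioester component cleaved by C1s and the mannose-binding lectin proteases, had 23144, 24496 and 29017 normalized counts in KO livers, against 37403, 46285 and 27625 in WT livers. WT liver 3 lay within the KO range, and the log2 fold change was -0.51 (SE 0.22, limma, adjusted p = 0.6245). C4b shares most of its sequence with C4a, so the division of reads between them is uncertain. C3 had 179044, 115679 and 146292 normalized counts in KO livers, against 194277, 287391 and 92942 in WT livers, a log2 fold change of -0.26 (SE 0.41, limma, adjusted p = 0.895). The WT libraries of C3 spanned the KO range on both sides, with WT liver 2 highest and WT liver 3 lowest. C3 lies 1.77 Mb from Nudt12 on chromosome 17, the nearest of the 5 members on that chromosome. Cfb and C2 had log2 fold changes of -0.26 and 0.037.

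Of the terminal components, which assemble into the membrane pore, C8a had 20502, 20274 and 20878 normalized counts in KO livers, against 22418, 29193 and 24893 in WT livers. Its KO libraries lay together just below the WT libraries (log2 fold change -0.30, SE 0.16, limma, adjusted p = 0.668). C6 and C9 had -0.32 and -0.27, C8b had -0.0084, and C8g was the 1 on the high side with 0.25. The regulators ranged from -0.22 for Serping1 to -0.08 for Cfi, the protease that inactivates C3b and C4b, with C4bp (its cofactor for C4b) at -0.17 and Vtn at -0.12. Initiation genes had a median of 0.072, with Masp2 (a lectin pathway protease that cleaves C4 and C2) at 0.25, Mbl2 (a mannose-binding lectin) at 0.15, C1s1 and C1ra (the proteases of C1) at 0.11 and 0.033, Masp1 at -0.18 and Mbl1 at -0.33. C1ra and C1s1 have close copies in C1rb and C1s2, and Kng1 in Kng2, so that reads could be divided between them.

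Acute-phase transcripts lay mostly on the low side in KO livers, like the complement genes past initiation. Of the 24 acute-phase genes, 22 had lower values in KO livers. Their median was -1.15 (log2), and 0 passed the threshold, while 16 had an unadjusted p under 0.05 (limma). Saa2, which encodes a serum amyloid A, had 155, 212 and 279 normalized counts in KO livers, against 4723, 52607 and 8483 in WT livers (limma, adjusted p = 0.0857). Of 17 clock genes 13 had an unadjusted p under 0.05 in liver, 10 of them with higher KO values. Kupffer cell markers had lower KO values in 10 of 10 genes (median -0.25), with sums of 9168 to 10944 in KO and 9356 to 13711 in WT livers. The part of acute-phase state, time of collection and macrophage content in the values of the 37 genes was not tested.

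**Figure D3:**
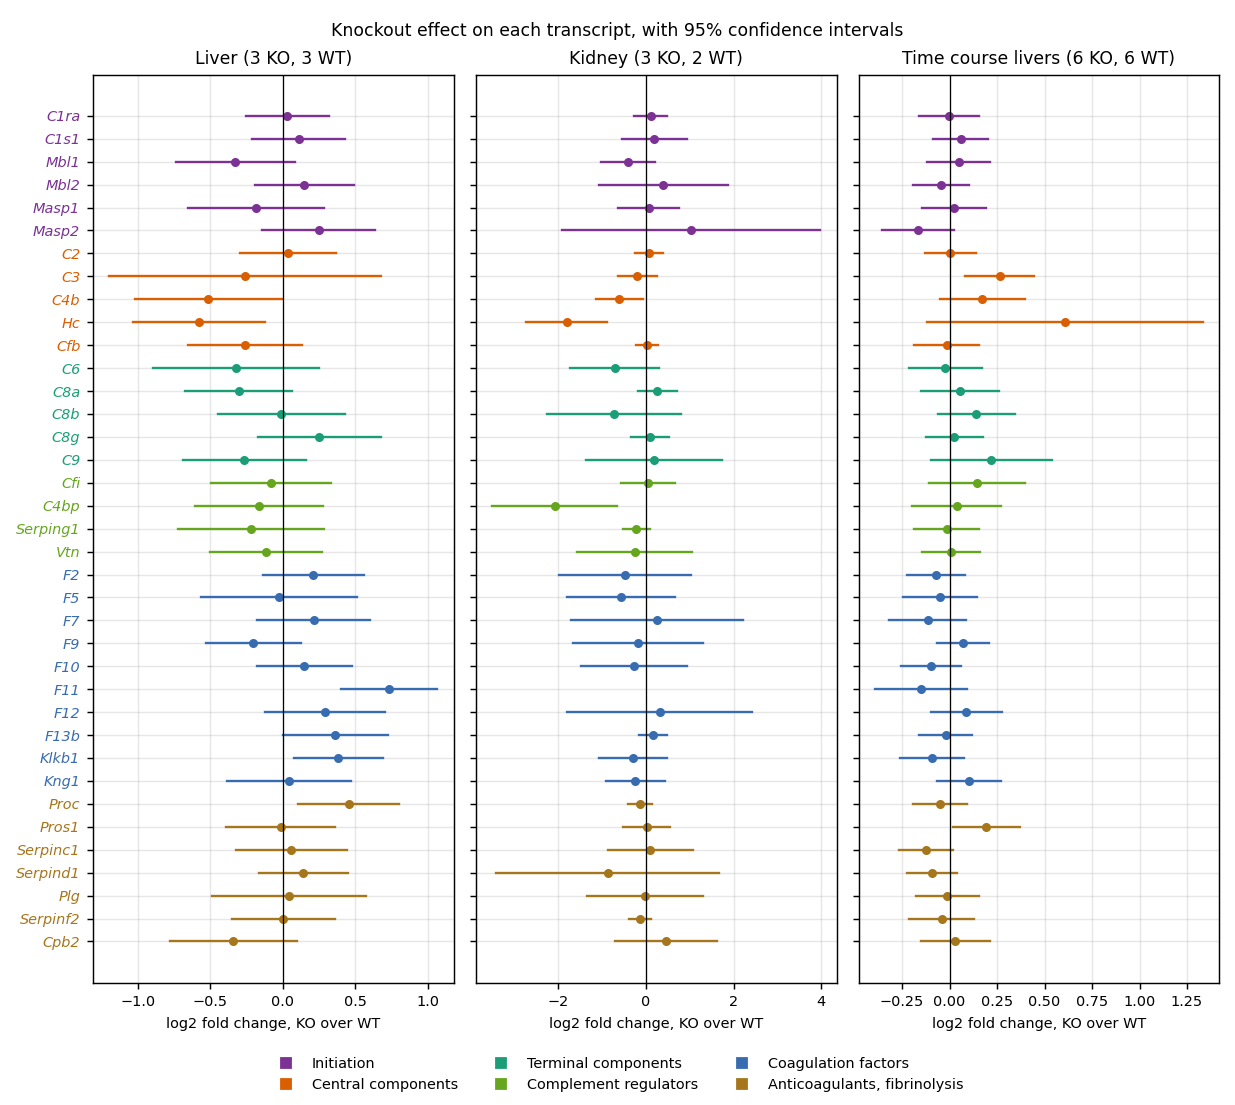
Log2 fold change of KO over WT for the 37 transcripts in liver, kidney and the time course livers, with 95% confidence intervals from limma, coloured by role; the 3 panels have different horizontal scales. Intervals that clear 0 belong to F11, Proc, Hc, Klkb1, C4b and F13b in liver, to Hc, C4bp and C4b in kidney, and to C3 and Pros1 in the time course, and F11 was not tested in kidney.

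In kidney 36 of the 37 genes passed the filter of a mean of at least 1, and 0 of 36 had an adjusted p under 0.05 (limma; 0.0045% of all 22224 genes tested). Before adjustment 3 genes had a p under 0.05, all with lower KO values (Hc, C4bp and C4b; 5.4% of all genes had one). Values were higher in KO kidneys for 17 genes and lower for 19, and the median was -0.074 (log2), against 0.0017 over all genes. No member lay above every WT kidney, where 9.9% of all genes did, and 5 lay below (C6, Serping1, C4bp, Hc and C4b), where 10.6% of all genes did.

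Hc had 6.85, 7.03 and 6.57 normalized counts in KO kidneys, against 28.8 and 24.1 in WT kidneys. The 3 KO libraries lay close together, and both WT libraries were several times higher. The means were 6.82 ± 0.235 in KO (SD, n = 3) and 26.4 ± 3.26 in WT kidneys (SD, n = 2), a log2 fold change of -1.81 (SE 0.39, limma, adjusted p = 0.674). With the liver and kidney libraries in 1 fit that shared the spread, the log2 fold change of Hc in kidney had an adjusted p of 0.00891 (limma). The spread in that fit came also from liver libraries at 25081 to 50343 normalized counts. This adjusted p is therefore not a measure of the spread between kidneys alone. C4bp had 3.46, 4.64 and 2.10 normalized counts in KO kidneys, against 28.3 and 10.2 in WT kidneys (log2 fold change -2.08, SE 0.60, limma, adjusted p = 0.841). These levels are a few estimated reads per library, and WT kidney 1 was by far the highest for C4bp.

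C4b was better measured in kidney, with 206, 192 and 156 normalized counts in KO kidneys, against 335 and 234 in WT kidneys. All KO libraries were lower than both WT libraries, and the log2 fold change was -0.61 (SE 0.23, limma, adjusted p = 0.887). Serping1 had 1292, 1071 and 1131 normalized counts in KO kidneys, against 1310.3 and 1383 in WT kidneys, a log2 fold change of -0.21 (SE 0.13, limma, adjusted p = 0.925). The gap between the groups was small next to their spread. C6, the first component to join C5b in the pore, had 16.4, 15.5 and 9.31 in KO kidneys, against 18.4 and 27.4 in WT kidneys (limma, adjusted p = 0.93), and Mbl1 had 101, 71.8 and 70.5 in KO kidneys, against 115 and 98.4 in WT kidneys (limma, adjusted p = 0.93). KO kidney 1 lay within the WT range for Mbl1.

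Of the genes that kidney held at high levels, Cfb, Serpinf2, F13b and Proc had small fold changes. Cfb had 13347, 12806 and 11400.1 normalized counts in KO kidneys, against 11619 and 12932 in WT kidneys (log2 fold change 0.027, 95% interval -0.23 to 0.28). Serpinf2 had 6904, 6358 and 7625 in KO kidneys, against 7560.0 and 7612 in WT kidneys (log2 fold change -0.13, 95% interval -0.38 to 0.12). F13b and Proc had 0.17 (95% interval -0.15 to 0.49) and -0.13 (95% interval -0.40 to 0.14). The groups overlapped for Cfb, F13b and Proc, and for Serpinf2 KO kidney 3 was above both WT libraries. F5 was the most uneven of the abundant genes, with 473, 1166 and 1600.2 in KO kidneys, against 1988 and 1016 in WT kidneys (log2 fold change -0.57, 95% interval -1.79 to 0.66). F11 was listed at 0, 0 and 0 in KO kidneys, against 1.08 and 1.06 in WT kidneys, and was not tested.

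Hepatocyte markers had lower values in KO kidneys for 10 of 12 genes (median log2 fold change -0.37). Their sums were 39967 to 42815 in KO and 40864 to 46341 in WT kidneys, with none at 0 in all libraries. Cyp2e1 and Apob, with means of 25185 and 12904 over all kidneys, made up most of these sums. Alb had a mean of 349, so the sums say little of the other markers. Apoa1, the main apolipoprotein of high-density lipoprotein, stood at 19.1, 18.5 and 6.68 in KO kidneys, against 81.0 and 28.4 in WT kidneys. Some members at low levels were highest in WT kidney 1 as well. F2 had 9.62, 12.4 and 6.03 in KO kidneys, against 24.6 and 6.55 in WT kidneys, and Plg had 16.3, 11.6 and 14.2 in KO kidneys, against 25.8 and 7.52 in WT kidneys. Hc stood at 28.8 in WT kidney 1 and 24.1 in WT kidney 2, against 6.57 to 7.03 in KO kidneys. Lymphocyte and neutrophil markers had lower KO values in 6 of 6 genes tested, with sums of 71.0 to 173 in KO and 210 to 639 in WT kidneys. The part of stray hepatocyte or blood cell RNA in these values was not tested.

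The knockout effect was then set against itself in the tissues, as a difference of within-table effects in a joint fit. No member passed (limma, 0 of 37, where 0.00463% of all 21609 genes did), and 5 had an unadjusted p under 0.05, where 4.88% of all genes had one. The difference of liver minus kidney effects was 1.23 for Hc (SE 0.24, adjusted p = 0.545), 1.92 for C4bp (SE 0.51, adjusted p = 0.706) and 0.58 for Proc (SE 0.18, adjusted p = 0.878). For F11 it was 1.79 (SE 0.28, adjusted p = 0.514), a value that rests on kidney libraries at or near 0. It was 4.29 with an adjusted p of 0.00514 at a pseudocount of 0.1, so the size of the F11 difference is set by the pseudocount. In this joint fit both tissues had 1 spread per gene. The SEs for Hc and C4bp were below those of the kidney fit alone, 0.39 and 0.60.

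In the time course livers 0 of 37 genes had an adjusted p under 0.05 for the genotype (limma with time as a factor; 0.00535% of all 18702 genes). Before adjustment C3 and Pros1 had a p under 0.05, both with higher KO values (2 of 37, where 5.99% of all genes had one). The median log2 fold change was 0.0047, against -0.0020 over all genes, and 0 members had groups that did not overlap (0.198% of all genes, of which 0.0856% with KO above and 0.112% with KO below). By the authors' deposited table no member had an adjusted p under 0.05 in the time course (0.0363% of all genes) or, among the 32 members with a value, in kidney (0.489%). The members made up 2 to 2.71% of a KO library and 2.04 to 2.27% of a WT library.

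C3 had the smallest p. At ZT0, 4, 8, 12, 16 and 20 it stood at 88844, 101789, 130818, 159561, 99127 and 105881 normalized counts in KO livers, against 81860.0, 86392, 93049.5, 118793, 94186 and 89845 in WT livers. KO was higher at 6 of 6 times, both genotypes were highest at ZT12, and the log2 fold change was 0.26 (SE 0.08, limma, adjusted p = 0.815, unadjusted p = 0.00964). Pros1 had 1636, 1118, 1399, 1665, 1409.9 and 1165 in KO livers over the same times, against 1209.8, 1121, 1224, 1336, 1253 and 1129 in WT livers (log2 fold change 0.19, SE 0.078, limma, adjusted p = 0.828). The KO libraries at ZT0 and ZT12 were the highest of Pros1, and at ZT4 the genotypes were nearly equal.

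Hc had its widest gap between the genotypes at ZT12. It stood at 26304, 20561, 24381, 35143, 19130.5 and 21125 normalized counts in KO livers at ZT0, 4, 8, 12, 16 and 20, against 18155, 17443, 22467, 5506, 19116 and 19957 in WT livers. The KO library at ZT12 was the highest of all 12 and the WT library at ZT12 the lowest, while at ZT16 and ZT20 the genotypes were close. The log2 fold change was 0.61 (SE 0.32, limma, adjusted p = 0.852), and without ZT12 it was 0.19. C4b had 14329 ± 1353 in KO and 12749 ± 1415 in WT livers (SD, n = 6 each; log2 fold change 0.17, limma, adjusted p = 0.862). Serpinc1 had 21056 ± 1549.8 in KO and 22938 ± 1102 in WT livers (log2 fold change -0.13, limma, adjusted p = 0.851), and Masp2 had 2449.7 ± 297 in KO and 2753 ± 377 in WT livers (log2 fold change -0.17, limma, adjusted p = 0.851). The genotypes overlapped for each of these 3 genes.

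F11, Klkb1, F13b and Proc, whose KO values lay above every WT value in livers of the younger cohort, did not do so here. F11 had 1536, 1185, 1371, 1283, 1253 and 907 normalized counts in KO livers at ZT0, 4, 8, 12, 16 and 20, against 1242, 1384, 1722, 1377, 1263 and 1323 in WT livers. KO was higher at ZT0 only, and the log2 fold change was -0.15 (95% interval -0.39 to 0.092). Klkb1, F13b and Proc had -0.092, -0.02 and -0.05 (95% intervals -0.26 to 0.076, -0.16 to 0.12 and -0.19 to 0.09). Of the 8 coagulation factors on the high side in the liver cohort, F12 and Kng1 were also on the high side here, with 0.088 and 0.10. The median over the coagulation factors was -0.061, over the central components 0.17 and over the terminal components 0.055, each of opposite sign to the liver cohort. Acute-phase genes also had the opposite sign, with higher KO values in 20 of 24 genes, a median of 0.24, 6 genes at an unadjusted p under 0.05 and 0 past the threshold (limma). Their sums were 122012 to 212367 in KO livers, highest at ZT12, and 120194 to 138939 in WT livers.

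The difference between the cohorts was tested in a joint fit. It passed for 0 of 37 genes, where 0.0369% of all 18972 genes did, and 8 members had an unadjusted p under 0.05, where 10.2% of all genes had one. The effect in the liver cohort minus that in the time course was 0.89 for F11 (SE 0.18, limma, adjusted p = 0.0982, unadjusted p = 0.000254). It was 0.50 for Proc (SE 0.14, adjusted p = 0.219), 0.47 for Klkb1 (SE 0.13, adjusted p = 0.235) and -0.68 for C4b (SE 0.23, adjusted p = 0.318). For Hc it was -1.19 (SE 0.48, adjusted p = 0.421). The cohorts differ in age, housing, normalization table and labelled time, which cannot be told apart here.

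A daily rhythm was found in 3 of the 37 genes (limma F test of a 24 h cosine and sine over both genotypes, adjusted p under 0.05). This is a share near the 5.8% of all 18702 genes that passed. An unadjusted p under 0.05 was found for 11 members, against 21% of all genes. Among the 1876 genes with a mean of at least 1000 normalized counts, a level that each member reached, 333 passed, or 17.8%, a comparison chosen after the values were seen. Amplitudes, from mean to peak on the log2 scale, ran from 0.019 to 0.357 with a median of 0.119, against a median of 0.288 over all genes and of 0.158 over the 1876 abundant genes.

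Serpinf2 was the most clearly rhythmic. At ZT0, 4, 8, 12, 16 and 20 it stood at 8502, 9423, 8310.3, 6629, 5935 and 5963 normalized counts in KO livers, against 7956, 9384, 8844, 7413, 5176 and 7342 in WT livers. Both genotypes peaked at ZT4 and were lowest at ZT16, with a fitted amplitude of 0.36 (SE 0.051), a peak at ZT4.44 and an adjusted p of 0.00469 (limma). Klkb1 had 4589, 5174, 5871, 5786, 4675 and 4010.0 in KO livers at these times, against 5666, 5882, 6446, 5851, 4090.0 and 4306 in WT livers. Both genotypes were highest at ZT8 and low at ZT20 or ZT16, and the fitted amplitude was 0.28 (SE 0.053, peak at ZT7.43, limma, adjusted p = 0.0226). F5 had 5207, 7523, 8914, 7742, 8929 and 7665 in KO livers, against 6125, 7011, 8572, 10414, 8231 and 7238 in WT livers. Both genotypes were lowest at ZT0, with a single WT maximum at ZT12 and KO maxima at ZT8 and ZT16 (amplitude 0.30, SE 0.064, peak at ZT12, limma, adjusted p = 0.0394). With time as a factor of 6 levels in place of the cosine none of the 3 passed (limma, adjusted p = 0.0844 for Serpinf2, 0.154 for Klkb1 and 0.185 for F5). Serpinf2 was the 1 of them that passed whichever single time was left out. Klkb1 passed in some of these runs (limma, adjusted p = 0.0248 to 0.185). F5 passed in none of them (limma, adjusted p = 0.0661 to 0.276), so its call needed all 6 times.

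The start sites of Serpinf2 and F5 are shown because rhythm passed in these genes, beside that of Klkb1 above (RefSeq, GRCm38.p6, 250 bases before to 50 after the start, 5′ to 3′; Serpinf2 at chr11:75439452-75439751, minus strand, and F5 at chr1:164151585-164151884, plus strand). Capitals mark AGGTCA (reverse complement TGACCT), the core letters of ROR response elements, searched without flanking bases. The first base lies at -126 in Serpinf2 and, on the opposite strand, at -57 in F5. These letters occurred in windows of 11 member genes, and not in that of Klkb1.
Serpinf2: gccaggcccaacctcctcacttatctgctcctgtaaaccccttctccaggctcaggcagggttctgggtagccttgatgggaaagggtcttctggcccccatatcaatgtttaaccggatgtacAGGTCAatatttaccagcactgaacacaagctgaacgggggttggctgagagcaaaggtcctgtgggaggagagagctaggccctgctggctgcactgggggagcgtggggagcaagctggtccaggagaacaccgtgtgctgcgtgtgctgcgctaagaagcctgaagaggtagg
F5: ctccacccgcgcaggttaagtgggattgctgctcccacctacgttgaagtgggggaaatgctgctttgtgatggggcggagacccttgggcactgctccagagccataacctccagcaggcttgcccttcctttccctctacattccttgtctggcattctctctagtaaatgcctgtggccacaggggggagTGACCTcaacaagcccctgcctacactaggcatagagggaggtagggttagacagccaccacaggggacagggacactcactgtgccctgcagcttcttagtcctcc

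Windows of this kind were found for 28 of the 37 genes, 30 windows in all. The letters AGGTCA, searched without the flanking bases of an ROR element, occurred in 36.7% of these windows. They occurred in 16.3% of all 32851 windows of the same length. Of the other motifs searched on both strands, the HNF1 half-site (GTTAAT) was in 26.7% of member windows and 7.1% of all. The loose C/EBP motif (TTGCNNAA) was in 30% and 10.8%, and the D-box (TTANNTAA) in 16.7% and 6%. The E-box (CACGTG) was in 0% of member windows and in 7.15% of all. No pair of these motifs overlapped in the 5 windows shown. A match describes letters in the window only.

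**Figure D4:**
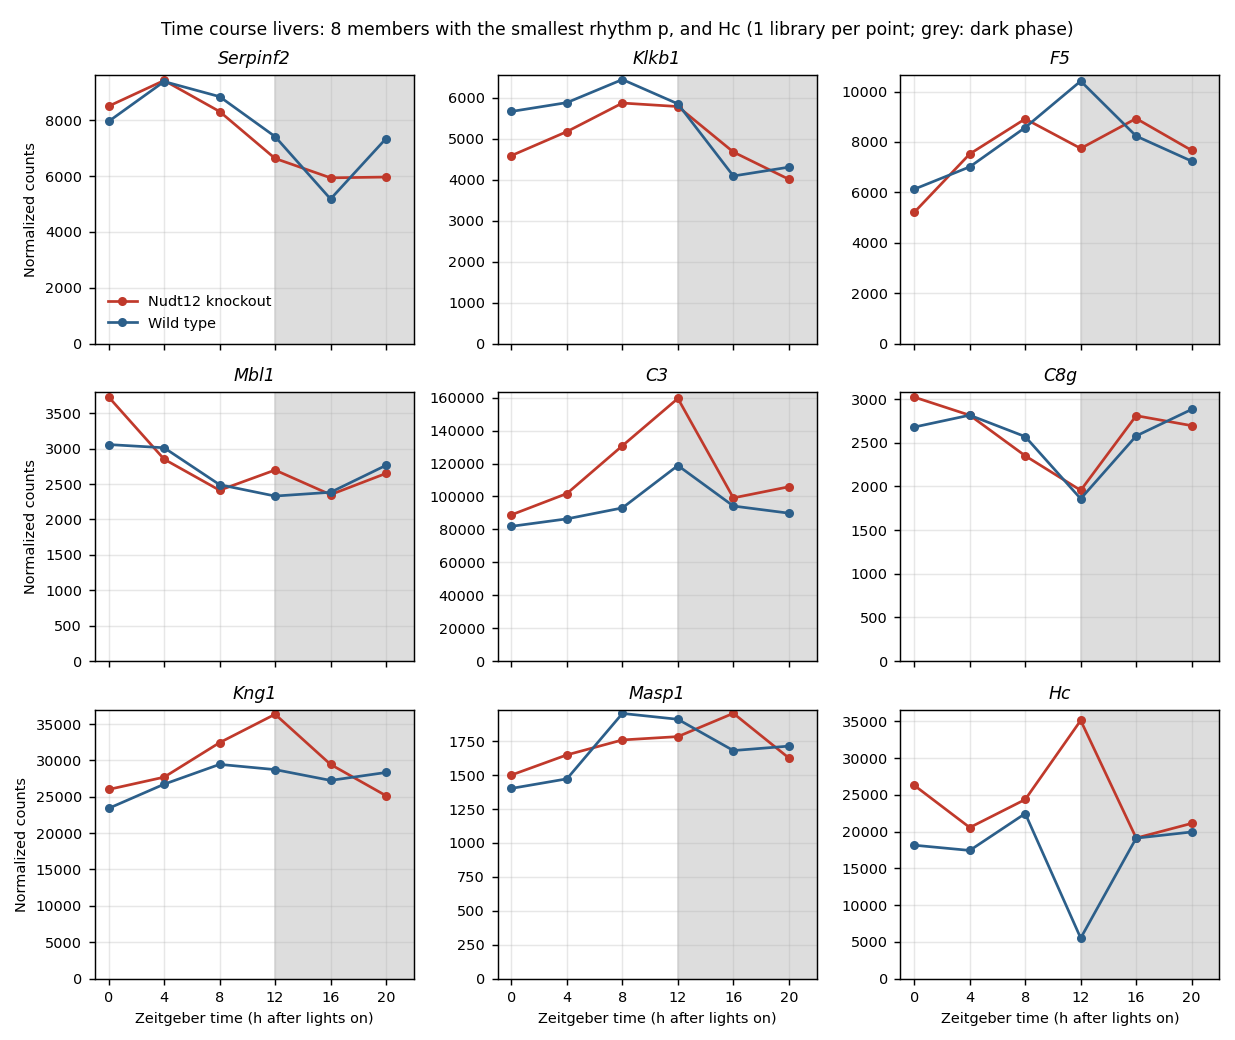
Normalized counts over zeitgeber time in the time course livers for the 8 genes with the smallest rhythm p and for Hc, KO in red and WT in blue, 1 library per point, with the dark phase shaded and axes starting at 0. Serpinf2 peaks at ZT4 in both genotypes, C3 at ZT12 in both, and the WT library of Hc at ZT12 stands below the other 11 libraries.

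Of the next 5 genes by p, C3 and Kng1 peaked near the light to dark change and Mbl1 and C8g near the dark to light change. Their fitted peaks were ZT11.4 for C3, ZT11.1 for Kng1 and ZT12.4 for Masp1, against ZT0.821 for Mbl1 and ZT23.5 for C8g. None passed the threshold (limma, adjusted p = 0.0785 for Mbl1, 0.0803 for C3, 0.102 for C8g, 0.105 for Kng1 and 0.12 for Masp1). Mbl1 had 3729, 2851, 2412, 2698, 2350.0 and 2650.3 normalized counts in KO livers, against 3058, 3012, 2491, 2330.2, 2384 and 2764 in WT livers, highest at ZT0 in both. C8g, the lipocalin-like subunit of C8, had 3024, 2816, 2352, 1956, 2811 and 2697 in KO livers, against 2681, 2817, 2571, 1859.5, 2579 and 2883 in WT livers, and was lowest at ZT12 in both. Kng1 had 26006, 27698, 32444, 36346, 29447 and 25146 in KO livers, against 23406, 26728, 29453, 28735, 27249 and 28341 in WT livers, and was higher at ZT8 and ZT12 than at ZT0 in both. Masp1, a protease of the lectin pathway, had 1501, 1649.8, 1759.9, 1785, 1956 and 1627 in KO livers, against 1402, 1473, 1955, 1912, 1682 and 1714 in WT livers, lowest at ZT0 in both.

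**Figure D5:**
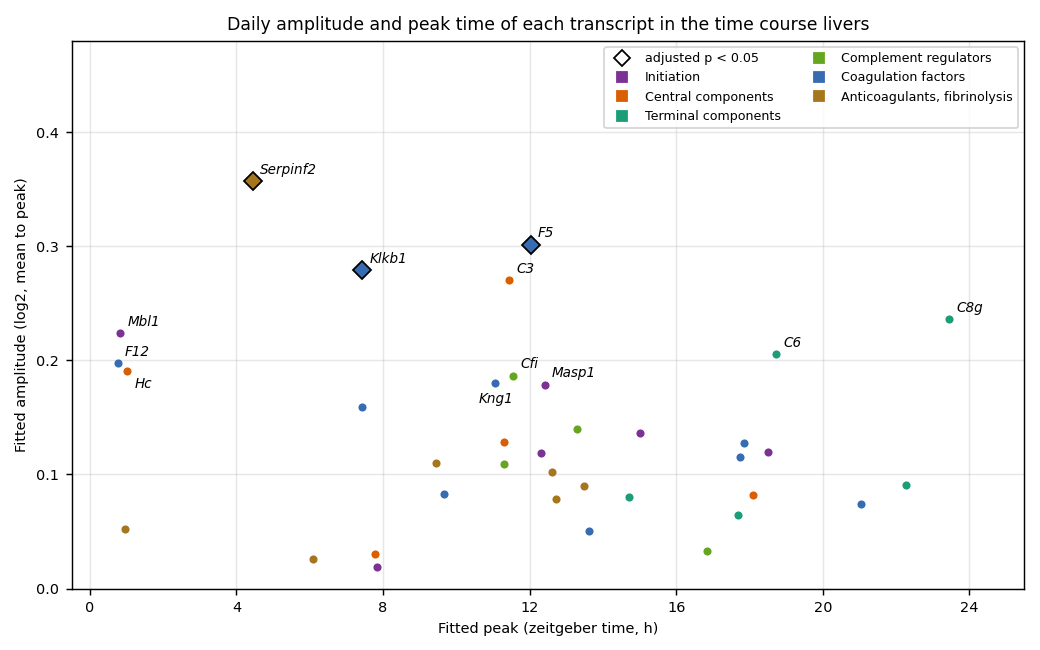
Fitted amplitude (log2, mean to peak) against fitted peak time (zeitgeber h) of the 37 transcripts in the time course livers, 1 point per gene, coloured by role; diamonds mark an adjusted p under 0.05. Serpinf2 (0.36), F5 (0.30) and Klkb1 (0.28) have the 3 largest amplitudes, and most members lie below 0.2.

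A difference of the daily pattern between the genotypes had an adjusted p under 0.05 in no member (limma, interaction of genotype with cosine and sine, 0 of 37, where 0% of all genes passed). Before adjustment 0 members had a p under 0.05, against 4.78% of all genes, and the smallest p was 0.0611, for C4b. With 1 library per genotype and time this test has little precision. The ratio of the highest to the lowest time had a median of 1.37 over the members in KO livers (1.14 to 1.88) and 1.29 in WT livers (1.09 to 4.08, the last for Hc). In KO livers 14 members were highest at ZT12 and 11 at ZT0, while in WT livers 14 were highest at ZT8 and 17 were lowest at ZT0. Each of these counts rests on 1 library, and the share over all genes was not computed. A single library stood apart from the other 5 of its genotype for 4 genes in KO and 7 in WT livers, where 11.1% and 10.4% of all genes had such a library.

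Other genes of the same pathways gave no call between the genotypes. Further lists, of other complement components (19 genes), complement receptors and surface regulators (16), other coagulation genes (18) and other anticoagulant and fibrinolytic genes (16), had 0 genes at an adjusted p under 0.05 between the genotypes in liver, kidney or the time course (limma). Of all genes 0.0157%, 0.0045% and 0.00535% had one in these comparisons. In the order of these lists 18, 15, 18 and 16 genes were tested in liver and in the time course. In kidney 15, 15, 18 and 15 were tested. An unadjusted p under 0.05 was found for 0, 2, 4 and 2 genes in liver, against 7.99% of all genes. The numbers were 0, 1, 0 and 2 in kidney (5.4% of all genes) and 4, 0, 1 and 0 in the time course (5.99%). In liver the smallest p of their lists belonged to C5ar1, the receptor of C5a (log2 fold change -2.02, limma, adjusted p = 0.474), to F3, tissue factor (1.04, adjusted p = 0.569), and to Thbd, thrombomodulin (-0.73, adjusted p = 0.572). Fga, the fibrinogen alpha chain, had -0.72 (adjusted p = 0.599). In kidney Cr2, a complement receptor of B cells, had -1.54 (adjusted p = 0.841) at a mean of 43.6 normalized counts. Serpina10, the inhibitor of factor Xa with protein Z, had -2.63 there (adjusted p = 0.898). In the time course Cfd (factor D, which cleaves factor B) had 1.87 (adjusted p = 0.828) at a mean of 30.5 normalized counts. Vwf (von Willebrand factor) had 0.72 there (adjusted p = 0.828). Rhythm passed in 1 of 18, 0 of 15, 2 of 18 and 3 of 16 genes tested of these lists (5.8% of all genes did): in C4a among the other complement components, in Mcfd2 and Fgg among the other coagulation genes, and in S100a10, Serpine2 and Serpina5 among the other fibrinolytic and anticoagulant genes.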

How the data were processed

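From 500 ng of total RNA per sample, ribosomal RNA was removed, and stranded libraries were read from 1 end over 100 bases, per the labels' protocols. The authors deposited a normalized signal (estimated counts scaled between libraries) in 3 separately normalized tables, per the file headers and values. Salmon 0.12.0, R 3.6.0, DESeq2 1.24.0 and GRCm38 are named in the submitters' processing notes, which give them no role. The authors' deposited log2 fold changes (base judged from the values) and adjusted p-values were used only where named. Only 13.4 to 28.8% of low values (under 20) came out as whole multiples of a common step (tolerance 0.001), so reads were not recovered and no count test was run; approximate depth was 12.5 to 28.6 M (mega) reads.

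Values plus 1 were taken to log2, genes whose mean fell under 1 were left out, and limma 3.58.1 (R 4.3.3; prior variance with a trend; two-sided) was run per comparison, Benjamini-Hochberg adjusted over all genes tested, threshold 0.05; fold changes of low genes are understated on this scale. Adjusted p-values come from limma except where the authors' table is named. The time course fit held time as a factor, since its replicate numbers mark shared times. Rhythm was tested with a 24 h cosine and sine plus genotype. Levels per kb used the union of exons in GENCODE vM21; 36 members matched with their version and Mbl2 without it. Members, lists and named genes (smallest p per comparison, highest levels per kb) were chosen with earlier results of these data known. Alternatives were other pseudocounts, filters, scaling and models, and leaving out libraries or times. The fits were tested on simulated data.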

Additional observations from a re-analysis of the deposited data

Results flagged for a closer look

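Single libraries stood apart in 11 of the 74 groups of 6 time course libraries (37 genes in each genotype), where Dixon's ratio, the gap to the nearest library divided by the range, passed its 95% critical value. Chance gives about 1 in 20, and over all genes the share was 11.1% in KO and 10.4% in WT libraries. In KO livers the library at ZT12 was high for Serping1 (ratio 0.823; 7438, against 5617 to 5939 in the other 5) and for Cfi (ratio 0.685; 13837, against 7358 to 9397). The same library was highest of the 12 in Saa1 (3048 normalized counts), an acute-phase gene. Mbl1 was high at ZT0 in KO (ratio 0.637) and F9 low at ZT4 in KO (ratio 0.636). In WT livers the library at ZT12 was low for Hc (ratio 0.704; 5506, against 17443 to 22467) and C8g (ratio 0.695) and high for C3 (ratio 0.666). The WT library at ZT0 was low for Proc (ratio 0.748), F2 (ratio 0.682) and Cfi (ratio 0.655), and that at ZT8 was high for F11 (ratio 0.704; 1722, against 1242 to 1384).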

How the results depend on the processing

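The genes with the smallest p in each genotype comparison or difference kept their direction under each alternative that tested them. The other genes named were not followed through the alternatives, and rhythm fits carry no direction. The median log2 fold change over the members, close to 0 in each comparison, changed sign to -0.061 in liver without WT liver 1, to 0.015 in kidney with a mean of at least 10 and 0.0070 without KO kidney 3, and to -0.013 and -0.018 in the time course without ZT0 and ZT12. In liver, the time course and differential rhythm, 0 members passed under every alternative, single libraries or times left out included. In the cohort difference 0 members passed under the other pseudocounts, filters and scaling (limma, lowest adjusted p = 0.0827, for F11). No library or time was left out for that difference. In kidney the 1 call (Hc) arose with the liver and kidney libraries in 1 fit that shared the spread (limma, adjusted p = 0.00891). The median log2 fold change in kidney ran from -0.34 (without WT kidney 2) to 0.0070 with 1 library left out, against an SD between replicates of 0.213. In the liver against kidney difference 1 member (F11) passed at a pseudocount of 0.1. Rhythmic members numbered 1 without ZT8, ZT12 or ZT20 (1 to 2 with 1 time left out) and 0 with time as a factor; C3 passed without ZT16 (adjusted p = 0.0335). The causes were not tested. With no replicate block for time, 0 members passed in the time course and the median was 0.0047. No paired analysis was possible because the replicate numbers of livers and kidneys were given in accession order. Kidney values under 100 limit what can be said there of 21 members and F11.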
